A study of Mus musculus with 6 samples.

Results

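The genes described here are 43 of the 53465 genes counted in a study of mouse embryonic stem cells. They encode interferon receptors, the factors that carry the interferon signal, sensors of foreign nucleic acid, interferon-induced antiviral proteins and poly(ADP-ribose) polymerases (PARPs). Members were listed by symbol, and the PARP genes were added because Parp10 was higher in the treated cells. The measured values of the same comparison therefore helped to choose the members. Their changes are given as a description, with fold changes and standard errors and without p-values.

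Poly(A)-selected RNA was sequenced from the Royan B20 mouse embryonic stem cell line in 2 groups of 3 libraries. Cells labelled R2i_BMPi received 250 nM noggin, a secreted antagonist of bone morphogenetic proteins (BMPs), together with 5 µM dorsomorphin, an inhibitor of BMP receptors. They are called BMP-inhibited below, after the label. Cells labelled R2i_control did not receive these 2 agents. Both groups grew on 0.1% gelatin in R2i medium with LIF, a cytokine that maintains stem cells, and had been passaged 7 times. R2i holds 1 µM of a MEK inhibitor, written PD0329501 in the labels, and 10 µM SB431542, which blocks TGF-beta receptors. All libraries are from 1 cell line, the 2 BMP inhibitors were given together, and the labels do not give the duration of treatment. They name no interferon, virus or nucleic acid as a treatment.

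Interferons are secreted antiviral signals. Type I interferon binds a receptor of 2 chains, IFNAR1 and IFNAR2, and type II interferon binds IFNGR1 and IFNGR2. Receptor-bound JAK kinases activate STAT proteins such as STAT2, which with IRF9 binds a promoter element called the interferon-stimulated response element (ISRE). Cells start to make interferon when RIG-I (Ddx58) or MDA5 (Ifih1) detect viral RNA and signal through MAVS, or when cGAS (Mb21d1) detects DNA and signals through STING (Tmem173). Pluripotent stem cells are known for a weak interferon response. PARPs attach ADP-ribose to proteins; PARP1, PARP2 and PARP3 act at DNA breaks, and several others are interferon-induced.

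Gene counts totalled 31474666 to 33774524 per BMP-inhibited library and 32720441 to 35322844 per control library. Across all genes, 15951 passed the count filter, and 64.2% of them passed an adjusted p of 0.05 in edgeR's quasi-likelihood test. In BMP-inhibited cells 32.5% rose and 31.7% fell. The median log2 fold change over all tested genes was -0.0031. Markers of embryonic stem cells were abundant in both groups, with 7 genes summing to 3799.7 to 4016.2 CPM in BMP-inhibited libraries and 4162.0 to 4332.2 CPM in controls. CPM is the read count scaled to the size of its library after TMM correction. Of these 7 stem cell markers, Sox2, Nanog, Esrrb and Tdgf1 fell, Dppa5a rose, and Pou5f1 and Zfp42 did not pass the threshold. BMP-inhibited libraries varied more among themselves. Over the 20 members at or above 10 CPM, the median coefficient of variation was 7.85% in BMP-inhibited cells and 2.75% in controls, against 5.62% and 2.83% over 9568 genes at that level.

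Of the 43 members, 36 passed the count filter. Among these, 15 rose in BMP-inhibited cells, 9 fell and 12 did not pass the threshold, so 66.7% were called against the background of 64.2%. The changes were at least 2-fold for 6 of the risers and 2 of the fallers, against 8.01% and 7.46% of all tested genes. The 6 include Parp10, whose rise brought the PARP genes into the list, so their number is a description only. The median log2 fold change of the tested members was 0.12. For 22 of the 36 the absolute log2 fold change was under 0.5. Irf2, Irf7 and Isg20, also among the 6, passed the filter only through counts in BMP-inhibited libraries and could not have been seen as lower. The groups did not overlap for 25 of the 36, 16 with all BMP-inhibited libraries above and 9 with all below. Over all tested genes 68.6% did not overlap, 34.5% with the BMP-inhibited libraries above and 34.1% with them below. Where a level is lower in such bulk RNA, fewer expressing cells and less RNA per cell cannot be told apart.

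**Figure D1:**
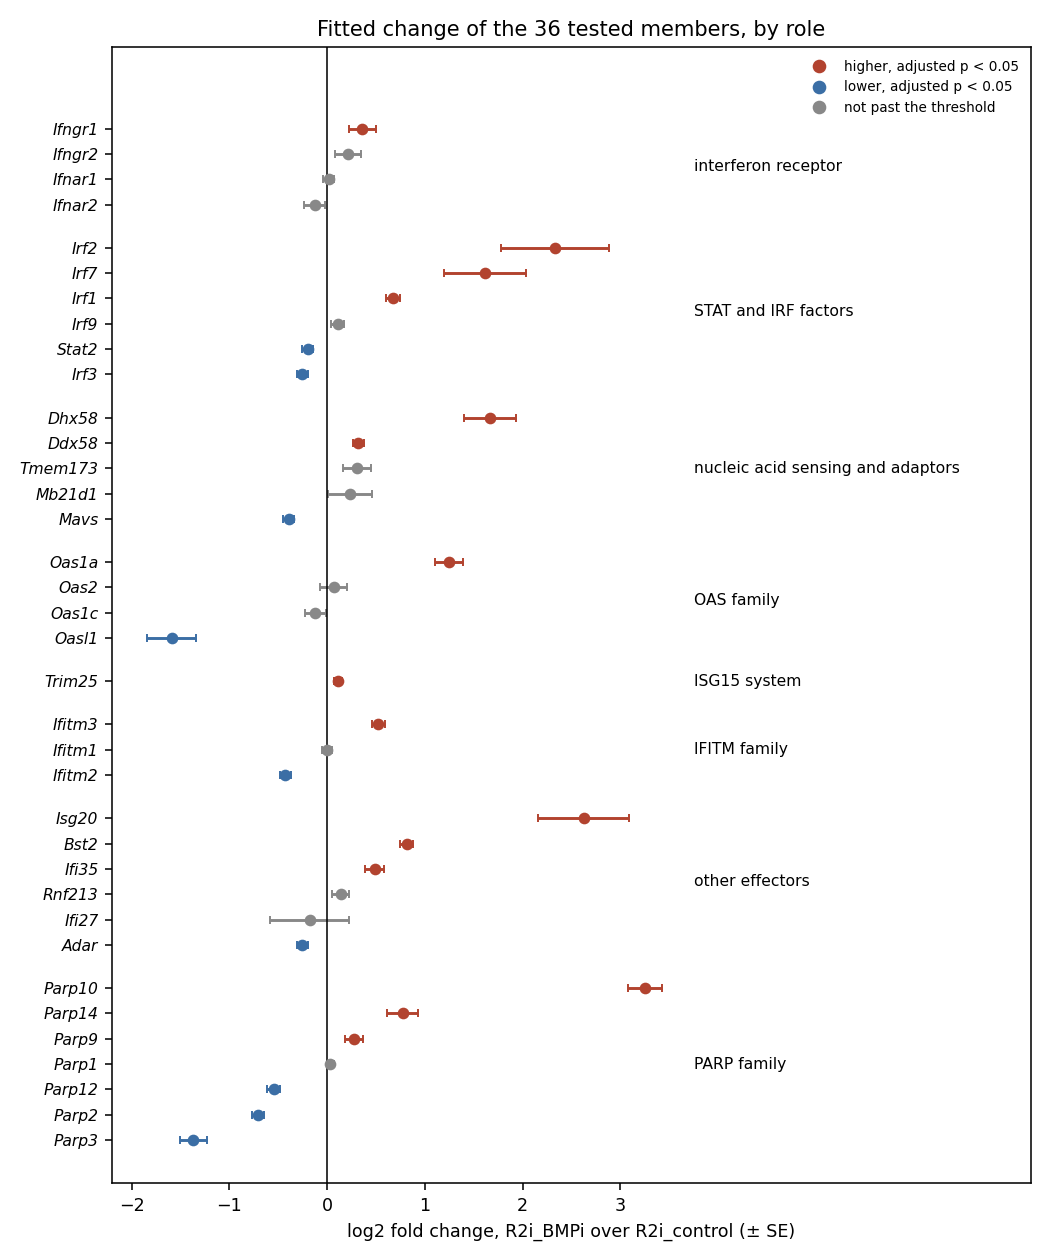
Fitted log2 fold change, BMP-inhibited over control, of the 36 tested members with standard errors, grouped by role. Points for genes that rose, that fell and that did not pass lie in most role groups; the values run from -1.59 for Oasl1 to 3.25 for Parp10.

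Levels of the members spanned several orders of magnitude. To compare genes, CPM was divided by the length of each gene's merged exons in kilobases. Only 6 members exceeded 40 CPM per kilobase in both groups: Parp1, the 3 Ifitm genes, Bst2 and Trim25. The median over all tested genes was 4.43 CPM per kilobase in BMP-inhibited cells and 4.68 in controls. At the other end, 15 members were under 1 CPM per kilobase in both groups, including the 3 Ifit genes, Isg15, Usp18, Ifih1 and Tlr3. Parp1, the main polymerase activated by DNA breaks, was at 170.2 ± 5.66 CPM per kilobase in BMP-inhibited cells and 166.4 ± 0.934 in controls (SD, n = 3). Ifitm3, a membrane protein that blocks virus entry, was at 208.5 ± 23.3 CPM per kilobase in BMP-inhibited cells and 144.9 ± 5.37 in controls. Ifitm3 stood first in BMP-inhibited cells and Parp1 stood first in controls. A near-identical copy covers 52.1% of the longest transcript of Ifitm3, so its level and rank are uncertain.

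**Figure D2:**
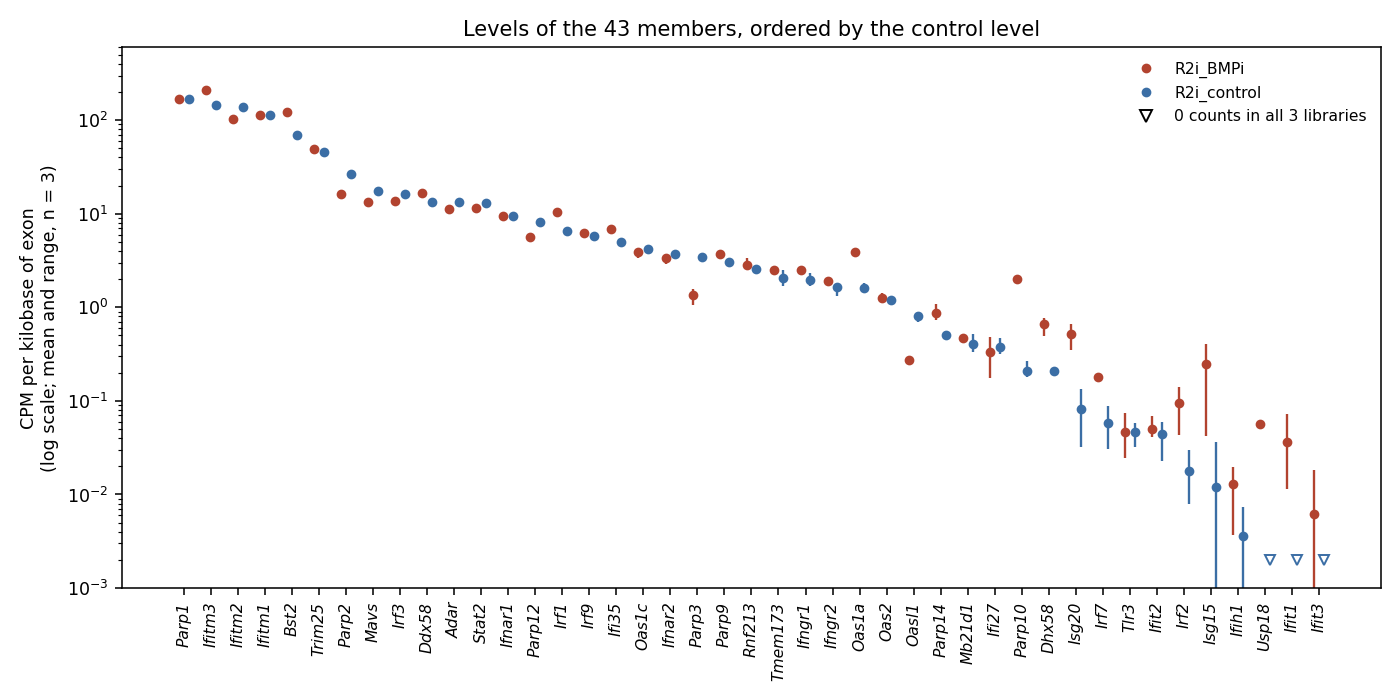
Level of each member in CPM per kilobase of merged exon on a log axis, as the mean (point) and range (line) of 3 libraries, with BMP-inhibited cells to the left of controls at each gene. Open triangles mark 0 counts in all 3 libraries, and lines that reach the lower edge include a library at 0; Parp1, the Ifitm genes, Bst2 and Trim25 lie above 40 and the Ifit genes below 0.1.

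Matches to the ISRE core show what several members share beside their names. The core was searched as GAAANNGAAA on both strands of RefSeq promoter windows on GRCm38.p6, from 250 bases before to 50 bases after the annotated start. Windows were found for 35 of the 43 members, and 12 of the 35 held a match (34.3%), against 3.99% of 27025 genes in the table. The 10 windows below are those of members that differ in how they moved. Each has the match nearest the start in capitals and up to 10 flanking bases on either side, 5′ to 3′ along the gene's strand, so that a match beginning with TTTC lies on the other strand. Further matches, present for 7 of the 12 members, are not marked, and some lie partly in the lower-case flanks.
Bst2, chr8:71537577-71537606, minus strand: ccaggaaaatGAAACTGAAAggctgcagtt
Oas1a, chr5:120907520-120907549, minus strand: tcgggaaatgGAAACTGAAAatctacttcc
Stat2, chr10:128270266-128270295, plus strand: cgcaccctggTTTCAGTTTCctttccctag
Ifit1, chr19:34640794-34640823, plus strand: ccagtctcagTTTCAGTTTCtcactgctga
Ifitm3, chr7:141010723-141010752, minus strand: caaaattcagGAAAAGGAAActtctgagaa
Ifitm2, chr7:140955988-140956017, minus strand: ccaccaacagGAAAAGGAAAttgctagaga
Isg15, chr4:156200865-156200894, minus strand: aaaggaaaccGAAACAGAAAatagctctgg
Ddx58, chr4:40239804-40239833, minus strand: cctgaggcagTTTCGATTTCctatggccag
Irf2, chr8:46739495-46739523, plus strand: tggggaagtGAAAATGAAAttgacttttc
Oas1c, chr5:120812603-120812632, minus strand: ggactttcagTTTCCATTTCccgggaaggg

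Over all matches, read on 1 strand, 6 members held the core GAAACTGAAA: Bst2, Oas1a, Stat2, Oas1c, Ifit1 and Ifit3. Of these, Bst2 and Oas1a rose, Stat2 fell, Oas1c did not pass, and Ifit1 and Ifit3 were too low to test. Ifitm2, Ifitm3 and Isg15 held the core GAAAAGGAAA; Ifitm3 rose, Ifitm2 fell and Isg15 was not tested. Of all 12 members with a match, 5 rose, 2 fell, 1 did not pass and 4 were not tested. Among the 23 members with a window and no match, 6 rose, 7 fell, 8 did not pass and 2 were not tested. Of all tested genes 32.5% rose and 31.7% fell. Irf2, with a match, and Irf7 and Isg20, without, passed the count filter only through BMP-inhibited libraries. A second element, the STAT-binding GAS with the letters TTCNNNGAA, was present for 11 of the 35 members (31.4%) against 9.55% of genes in the table, and 4 members held both. These are letter matches, not measured binding sites.

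Of the 4 interferon receptor genes, only Ifnar1 was above the median of all tested genes in level per kilobase, in both groups. Ifnar1, with the highest level per kilobase of the 4, had 59.7, 54.2 and 55.8 CPM in BMP-inhibited libraries, against 55.1, 54.8 and 57.8 CPM in control libraries. The groups overlap, and the log2 fold change was 0.02 (SE 0.06). Ifnar2 had a log2 fold change of -0.13 (SE 0.11) and Ifngr2 one of 0.21 (SE 0.13), neither past the threshold. Ifngr1, which binds interferon-gamma, was at 7.16 ± 0.386 CPM in BMP-inhibited cells and 5.58 ± 0.924 CPM in controls (SD, n = 3), with a log2 fold change of 0.36 (SE 0.14). Ifngr1 lost its call without control replicate 2 or 3, without BMP-inhibited replicate 2 or 3, and with library totals in place of TMM factors.

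The transcription factors of the pathway moved in both directions, and the larger fold changes were those of genes near the lower limit of detection. Irf3, the factor that sensors activate to start interferon transcription, fell. It had 44.2, 45.7 and 51.0 CPM in BMP-inhibited libraries and 55.4, 56.0 and 56.5 CPM in controls. All BMP-inhibited libraries lay below all controls, with a log2 fold change of -0.25 (SE 0.06). Stat2 fell slightly as well, with 67.7 ± 2.24 CPM in BMP-inhibited cells and 77.6 ± 4.81 CPM in controls (SD, n = 3; log2 fold change -0.20, SE 0.06). Irf9, the DNA-binding partner of STAT2, had a log2 fold change of 0.11 (SE 0.07) and did not pass.

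Irf1, an activator that is itself induced by interferon-gamma, rose to 42.0 ± 3.55 CPM in BMP-inhibited cells, against 26.3 ± 0.533 CPM in controls (SD, n = 3; log2 fold change 0.68, SE 0.07). Irf7, which amplifies type I interferon production, had 0.71, 0.674 and 0.67 CPM in BMP-inhibited libraries and 0.117, 0.331 and 0.211 CPM in controls. These levels rest on 65 counts in the BMP-inhibited libraries together and 23 in the controls, and the log2 fold change was 1.61 (SE 0.42). Irf2, known as a repressor that competes with IRF1, had 1.03, 0.321 and 0.731 CPM in BMP-inhibited libraries and 0.0585, 0.221 and 0.121 CPM in controls. BMP-inhibited replicate 2 lay just above the highest control, and the log2 fold change was 2.33 (SE 0.55), from 66 counts against 14.

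Among the sensors, RIG-I was abundant and MDA5 was near 0. Ddx58 was at 117 ± 10.04 CPM in BMP-inhibited cells and 93.9 ± 2.15 CPM in controls (SD, n = 3), and rose by 0.32 (SE 0.06) on the log2 scale. Ifih1, which encodes MDA5, had 5, 4 and 1 counts in BMP-inhibited libraries and 0, 1 and 2 counts in controls. Dhx58 encodes LGP2, the third member of this helicase family, which modulates the other two. It had 1.61, 2.31 and 2.53 CPM in BMP-inhibited libraries and 0.644, 0.717 and 0.663 CPM in controls, a log2 fold change of 1.67 (SE 0.27). The 2 groups of Dhx58 values are apart, at a level below the median gene in both.

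Among the adaptors Mavs fell and Tmem173 did not pass. Mavs, the mitochondrial adaptor of RIG-I and MDA5, had 46.5, 42.6 and 45.0 CPM in BMP-inhibited libraries, against 57.4, 59.5 and 59.3 CPM in controls. All BMP-inhibited libraries lay below all controls, with a log2 fold change of -0.39 (SE 0.05). Tmem173 was at 6.89 ± 0.446 CPM in BMP-inhibited cells and 5.57 ± 1.12 CPM in controls (SD, n = 3), and Mb21d1 at 1.95 ± 0.0759 CPM in BMP-inhibited cells and 1.66 ± 0.419 CPM in controls. Neither passed, and Tmem173 passed without control replicate 2, with a log2 fold change of 0.47. Tlr3, an endosomal receptor for double-stranded RNA, had 23 counts over the BMP-inhibited libraries and 25 over the controls and was not tested.

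Several, but not all, proteins of the OAS family make the messenger 2′-5′ oligoadenylate when they bind double-stranded RNA. The family's genes among the members included a riser and a faller of at least 2-fold. Oas1a had 7.04, 7.51 and 7.28 CPM in BMP-inhibited libraries and 2.75, 2.98 and 3.47 CPM in controls, a log2 fold change of 1.25 (SE 0.14). Its counts are uncertain, since 98.7% of its longest transcript matches Oas1g at 90% identity or more. Oasl1, known in mice as a translational repressor of Irf7, fell to 0.775, 0.642 and 0.70 CPM in BMP-inhibited libraries, against 2.19, 2.35 and 1.84 CPM in controls. The log2 fold change of Oasl1 was -1.59 (SE 0.25), the lowest of any member. Oas1c, the OAS member with the highest level per kilobase over both groups, had 8.07, 10.02 and 9.93 CPM in BMP-inhibited libraries and 10.3, 10.6 and 9.62 CPM in controls. Those 2 ranges overlap, and Oas1c did not pass. Oas2, at 5.53 ± 0.767 CPM in BMP-inhibited cells and 5.28 ± 0.374 CPM in controls (SD, n = 3), did not pass either.

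**Figure D3:**
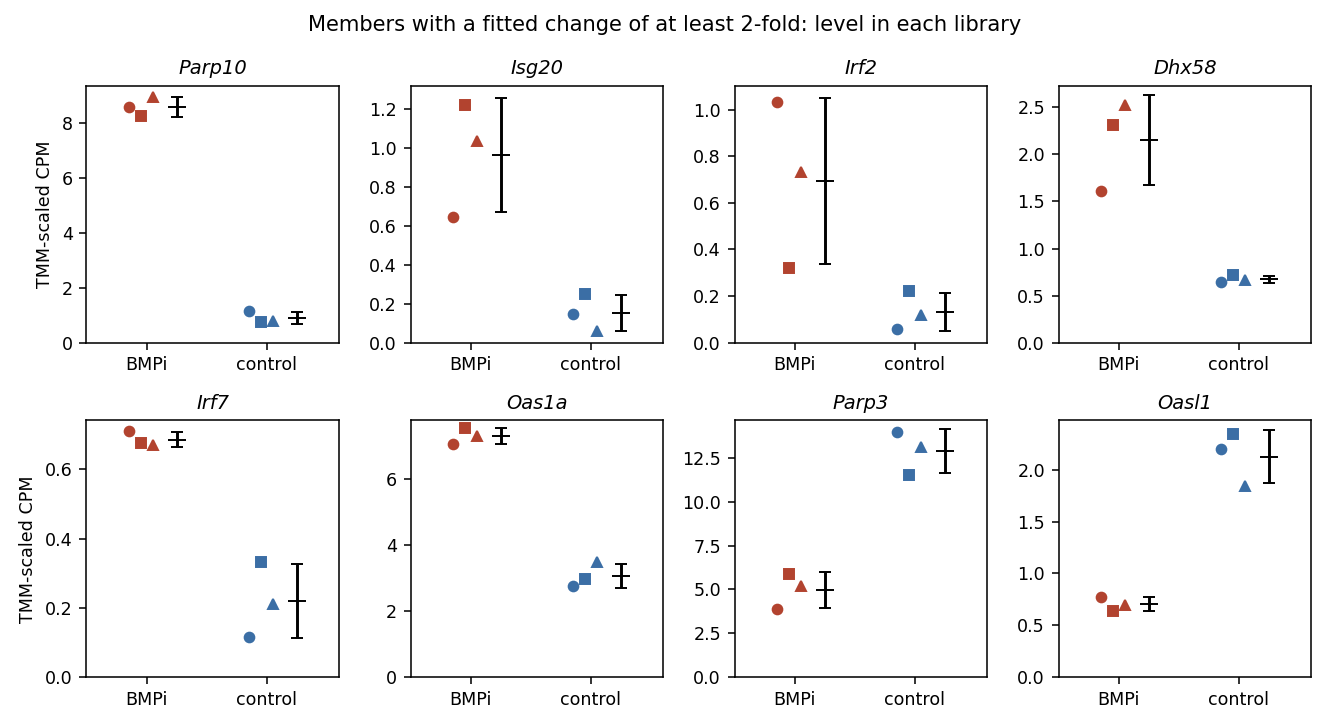
TMM-scaled CPM in each library for the 8 members with an absolute log2 fold change of at least 1, BMP-inhibited on the left and control on the right of each panel; circles, squares and triangles are replicates 1, 2 and 3, and black bars are the mean ± SD. Each panel has its own axis from 0. The groups do not overlap in any panel, but the panels were chosen by fold change, and 68.6% of all tested genes did not overlap. Oasl1 and Parp3 are lower in BMP-inhibited cells and the other 6 are higher. Of those 6, Irf2, Irf7 and Isg20 passed the count filter only through BMP-inhibited libraries, and the rise of Parp10 brought the PARP genes into the list.

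The IFIT proteins and ISG15 are the classical readouts of a type I interferon response, and their genes had few counts in both groups. Ifit1 had 6, 2 and 1 counts in BMP-inhibited libraries and 0 in each control library. With 3 counts over the control group taken as the floor, that is a 3.27-fold ratio. Ifit2 had 5, 5 and 9 counts in BMP-inhibited libraries and 8, 7 and 3 counts in controls, and Ifit3 had 1 count over the 6 libraries. Isg15, a ubiquitin-like protein attached to others during infection, had 7, 1 and 10 counts in BMP-inhibited libraries and 0, 1 and 0 counts in controls. That is a 19.6-fold ratio with an exact 95% interval of 3.10 to 818, which covers counting error only. Usp18, which removes ISG15 and restrains the receptor, had 5 counts in each BMP-inhibited library and 0 in each control. With the same floor its ratio is 5.45-fold. The Ifit1 and Usp18 ratios leave out counting error in the BMP-inhibited libraries, so the rises could be smaller. None of these 5 genes was tested. Near-identical copies cover 97.4% of the longest transcript of Ifit3 and 63.8% of that of Isg15, so reads of these genes may not have been assignable and their levels are uncertain. BMP-inhibited replicate 2 held 1 of the 18 Isg15 counts of its group.

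Trim25 stood apart from the rest of the ISG15 system in level. It encodes a ubiquitin ligase that acts on RIG-I and also attaches ISG15. The gene had 299, 272 and 283 CPM in BMP-inhibited libraries and 260.2, 268 and 262 CPM in controls, a log2 fold change of 0.11 (SE 0.04). All BMP-inhibited libraries exceeded all controls by a small margin. The Trim25 call was lost with library totals or upper-quartile factors, without any 1 of the control replicates, and without BMP-inhibited replicate 1.

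The 3 Ifitm genes lie within 1 stretch of chromosome 7 and moved apart. Ifitm3 had 127, 158 and 139 CPM in BMP-inhibited libraries and 101, 94.1 and 99.6 CPM in controls. It rose by 0.52 (SE 0.06) on the log2 scale, with the groups apart. Ifitm2 fell to 67.9 ± 5.36 CPM in BMP-inhibited cells, against 91.2 ± 2.35 CPM in controls (SD, n = 3; log2 fold change -0.43, SE 0.06). Ifitm1, a family member found at the cell surface, was at 125 ± 8.62 CPM in BMP-inhibited cells and 126 ± 3.19 CPM in controls, with a log2 fold change of -0.01 (SE 0.05). Summed over the 3 genes, the level was 308.8 to 352.2 CPM in BMP-inhibited libraries and 308.9 to 318.7 CPM in controls. Ifitm2 has 5 pseudogene copies that cover 62.6% to 66.0% of its longest transcript, and 40.9% of its exons overlap a predicted gene on the same strand that had 0 counts, so its level is uncertain. The level of Ifitm3 is uncertain as well, given its near-identical copy.

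Other effectors included an abundant riser. Bst2, or tetherin, which holds budding virus at the cell surface, had 104, 106 and 122 CPM in BMP-inhibited libraries and 67.0, 63.1 and 58.6 CPM in controls. Its groups are well apart, with a log2 fold change of 0.81 (SE 0.06). Isg20, an RNA exonuclease, had 0.646, 1.22 and 1.03 CPM in BMP-inhibited libraries and 0.146, 0.248 and 0.0603 CPM in controls. Its log2 fold change of 2.62 (SE 0.47) rests on 92 counts over the BMP-inhibited libraries and 16 over the controls. Ifi35, which forms a cytoplasmic complex with NMI, rose by 0.49 (SE 0.10). Adar, which edits adenosine to inosine in double-stranded RNA and so hides self RNA from MDA5, fell to 90.2 ± 7.04 CPM in BMP-inhibited cells, against 108 ± 3.55 CPM in controls (SD, n = 3; log2 fold change -0.25, SE 0.06). Rnf213, a large ubiquitin ligase, and Ifi27 did not pass, and Rnf213 passed without BMP-inhibited replicate 2 at a log2 fold change of 0.21.

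Parp10 had the largest change of any member. Its rise brought the PARP genes into the list, so its rank among members and among all genes is a description only. Parp10 encodes a mono-ADP-ribosyltransferase. Parp10 (ENSMUSG00000063268, GRCm38 chromosome 15, 76231174 to 76243441, minus strand) had 8.59, 8.25 and 8.95 CPM in BMP-inhibited libraries, against 1.14, 0.772 and 0.784 CPM in controls. All BMP-inhibited libraries lay far above all controls. The log2 fold change was 3.25 (SE 0.17), higher than 98.9% of all tested genes. Its exons overlap Plec on the same strand over 205 bases, 4.8% of its exon length. Plec, the gene of the cytoskeletal linker plectin, was at 166 CPM in BMP-inhibited cells and 160.1 CPM in controls, and its neighbour on the other side, Grina, at 35.6 CPM in BMP-inhibited cells and 47.8 CPM in controls.

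The 6 other PARP members divided into risers and fallers. Parp1 had 918, 867 and 918 CPM in BMP-inhibited libraries and 882, 875 and 885 CPM in controls, with a log2 fold change of 0.03 (SE 0.04) and overlapping groups. Parp2, which shares the DNA break response with PARP1, fell to 58.6 ± 5.41 CPM in BMP-inhibited cells, against 95.5 ± 1.68 CPM in controls (SD, n = 3; log2 fold change -0.70, SE 0.06). Parp3, which acts in double-strand break repair, had 3.88, 5.88 and 5.18 CPM in BMP-inhibited libraries and 14.0, 11.5 and 13.1 CPM in controls. No Parp3 values overlap between the groups, and the log2 fold change was -1.37 (SE 0.14). Parp12, an interferon-induced antiviral PARP, fell by 0.55 (SE 0.07) on the log2 scale.

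Parp14 and Parp9, which lie close together on chromosome 16 and carry macrodomains, rose by 0.77 (SE 0.16) and 0.28 (SE 0.09). Parp14 had 7.33, 6.77 and 10.1 CPM in BMP-inhibited libraries and 4.24, 4.69 and 5.25 CPM in controls, with replicate 3 the highest of its group. The Parp9 call was lost without control replicate 1. Parp9 overlaps Dtx3l on the opposite strand over 458 bases, and the strand setting of the counting is not given in the sources used here. Summed over the 7 members, PARP levels were 993.4 to 1041.7 CPM in BMP-inhibited libraries and 1036.3 to 1050.2 CPM in controls, most of it from Parp1.

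Other genes of the same pathways were read from 4 lists of 101 genes that are not members. Of these, 80 passed the filter, and 37 rose and 10 fell, against 32.5% and 31.7% of all tested genes. But 5 of the 80 passed the filter only through BMP-inhibited libraries and could not have been seen as lower. The lists were also chosen with earlier results of these data known, so these counts are a description only. Of the interferon genes themselves the lists held only Ifnb1, Ifna4 and Ifng, which had 0 counts in all 6 libraries. For each, 0 counts in a group allows a total of up to 3 counts over its 3 libraries. In the JAK-STAT list, 5 of 14 tested genes rose and 2 fell, with a median log2 fold change of 0.02. Jak1 rose to 79.2 ± 0.843 CPM in BMP-inhibited cells, against 57.3 ± 1.15 CPM in controls (SD, n = 3; edgeR adjusted p = 5.05e-07), and Jak2 rose by 0.57. Tyk2, the kinase bound to IFNAR1, had a log2 fold change of -0.45 (edgeR adjusted p = 3.01e-05), and Irf2bp1, a co-repressor of IRF2, one of -0.33.

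Interferon-stimulated genes outside the member list included several large risers at low levels. Of 42 listed, 28 were tested, 17 rose and 2 fell, against 32.5% and 31.7% of all tested genes. Of the risers 12 changed at least 2-fold, where 8.01% of all tested genes rose that far. The median was 0.64. Rsad2, Cmpk2, Oasl2, Gbp2 and Irgm1, all among the 12, passed the filter only through BMP-inhibited libraries, so the counts and the median lean upward. Another 14 were not tested, and Ifi44, Epsti1, Ifit1bl1 and Ifit3b had 0 counts throughout. Ifit3b matches 97.4% of the longest transcript of Ifit3, so its reads may not have been assignable. Pml, which organises nuclear bodies, was the riser with the smallest p, at 231 ± 15.8 CPM in BMP-inhibited cells and 143 ± 1.72 CPM in controls (SD, n = 3; log2 fold change 0.69, edgeR adjusted p = 9.39e-09). Samd9l rose to 8.6 ± 1.01 CPM, against 2.13 ± 0.338 CPM in controls (edgeR adjusted p = 2.25e-08). Irgm1, a GTPase of cell-autonomous immunity, had 250 counts over the BMP-inhibited libraries and 17 over the controls, a log2 fold change of 3.97 (SE 0.38). Ifi30, a lysosomal thiol reductase, fell, with a log2 fold change of -0.52 (SE 0.05, edgeR adjusted p = 6.43e-07).

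**Figure D4:**
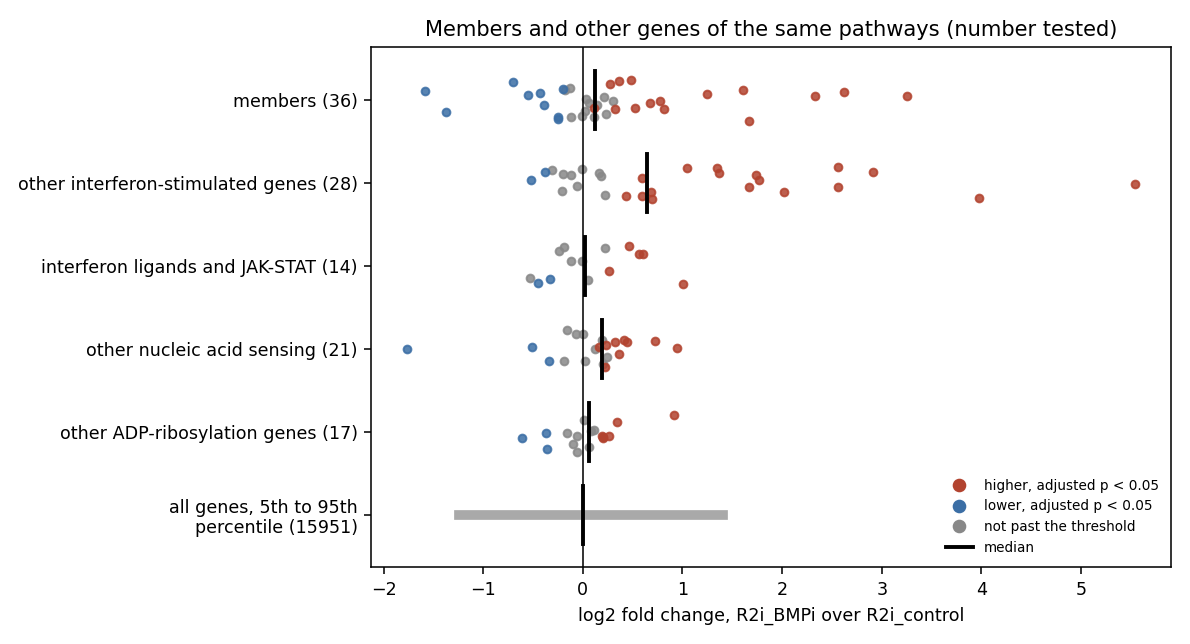
Log2 fold change, BMP-inhibited over control, of every tested member and of every tested gene in the 4 other lists, with vertical bars at the medians and the 5th to 95th percentile of all tested genes as a grey bar. The list of other interferon-stimulated genes has its median at 0.64, the other lists between 0.02 and 0.20, and the members at 0.12.

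The list of other sensing genes had 21 tested, of which 9 rose and 3 fell, against 32.5% and 31.7% of all tested genes. Its median log2 fold change was 0.20. Aim2, a sensor of cytosolic DNA, was abundant, at 96.8 ± 0.275 CPM in BMP-inhibited cells and 75.4 ± 0.663 CPM in controls (SD, n = 3; edgeR adjusted p = 3.22e-06). Tarbp2, a partner of Dicer, rose by 0.45 (edgeR adjusted p = 3.64e-06). Traf6, a ubiquitin ligase of Toll-like receptor signalling, and Rnaseh2a, a subunit that clears RNA from DNA hybrids, had log2 fold changes of -0.51 and -0.34. Trex1 had 0 counts in all libraries, but its exons lie wholly within those of Atrip on the same strand, where a read cannot be assigned. Of the 17 other ADP-ribosylation genes, all tested, 6 rose and 3 fell, beside the same shares of all tested genes, and the median was 0.06. Dtx3l, the ubiquitin ligase partner of PARP9, rose by 0.92 (SE 0.11, edgeR adjusted p = 2.62e-06), the largest rise of that list. Zc3hav1, the antiviral protein also called PARP13, Oard1 and Parp4 had log2 fold changes of -0.37, -0.36 and -0.61.

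Markers of other cell types also differed between the groups. Over all tested genes 32.5% rose and 31.7% fell. Of 9 trophectoderm markers 7 were tested and 5 rose, among them Krt8 and Krt18. Hand1, another of the 5, passed the count filter only through BMP-inhibited libraries. Eomes and Tfap2c did not pass the threshold. Cdx2, with 43 counts over BMP-inhibited libraries and 2 over controls, and Elf5, with 14 over BMP-inhibited libraries and 11 over controls, were not tested. The list summed to 328.8 to 410.8 CPM in BMP-inhibited libraries and 173.7 to 177.1 CPM in controls. The 11 genes used to mark 2-cell-like cells summed to 28.8 to 43 CPM in BMP-inhibited libraries and 0.0276 to 0.0878 CPM in controls. Fibroblast markers, 9 genes, summed to 13.7 to 15.9 CPM in BMP-inhibited libraries and 7.87 to 9.16 CPM in controls. Of the 5 that were tested, Col1a1, Col6a3 and Postn rose, and Thy1 and Pdgfrb did not pass. Postn passed the count filter only through BMP-inhibited libraries. Col3a1 was at 0 in all controls, and Lum and Dcn were at 2 counts or fewer over the 6 libraries. Of 9 leukocyte markers Adgre1 and Tyrobp were at 0 in all 6 libraries and Ptprc at 5 counts over BMP-inhibited libraries and 3 over controls, while 3 of the 5 tested rose and 1 fell. Cd68 rose to 25.5 ± 3.19 CPM in BMP-inhibited cells, against 17.9 ± 0.595 CPM in controls (SD, n = 3). Csf1r had 90 counts over BMP-inhibited libraries and 5 over controls, and Fcer1g had 49 over BMP-inhibited libraries and 14 over controls. Both passed the count filter only through BMP-inhibited libraries and could not have been seen as lower. Laptm5 fell to 233 ± 33.3 CPM in BMP-inhibited cells, against 351 ± 2.44 CPM in controls (SD, n = 3), and made up most of the list's sum. The sum of the leukocyte list was 238.7 to 302.9 CPM in BMP-inhibited libraries and 367.5 to 370.9 CPM in controls. The part of these cell types in the changes above was not tested.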

How the data were processed

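Expression was measured by poly(A)-selected, stranded RNA sequencing in 3 BMP-inhibited and 3 control libraries, which the labels call biological replicates. The authors deposited 1 table of unnormalized gene counts a library. Per the submitters' processing notes, which state no roles, the tools include HTSeq 0.9.1, DESeq2, STAR 2.6.1, CASAVA 1.8.2 and cutadapt 1.4.2, with GRCm38.p6 as the build. The annotation release and strand setting are not given in the sources used here. Rows that name no gene held 25.6% to 26.4% of reads and were left out. Symbols and exon lengths came from GENCODE M21 (also GRCm38), where 53360 of 53465 identifiers were found.

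Genes passing edgeR's default filter (minimum count 10, minimum total 15) were compared with the quasi-likelihood F test of edgeR 4.0.16 after TMM scaling, in R 4.3.3, two-sided, with Benjamini-Hochberg adjustment over all tested genes and a threshold of 0.05. "Rose" and "fell" mean past that threshold. Each standard error was derived from an unshrunk coefficient with its F statistic; their median was 0.085. The test was run on simulated counts first. Near-identical copies of members were sought with BLAST 2.17.0 (90% identity over at least 50% of the longest transcript). Alternatives were DESeq2 1.42.0, limma-voom (limma 3.58.1), other scalings and filters, a replicate block and leaving out each library. Same-numbered libraries did not deviate together (correlations -0.044, 0.0079 and 0.029), so the numbers were not treated as pairs. Replicates differed by more than sampling noise.

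The members and lists were chosen with earlier results of these data known. All members are named; values per library are given for members with an absolute log2 fold change of at least 1 and the most abundant of each role, with others chosen after their values were seen. From each other list, up to 4 genes with the smallest p are named, and further genes of those lists were chosen after their values were seen.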

Additional observations from a re-analysis of the deposited data

How the results depend on the processing

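Under 8 alternatives and 6 fits that left out 1 library each, the counts kept within 1.5 times their reported values. Members that rose numbered 15, and 17 with DESeq2, 18 with no count filter, 12 with the stricter filter, 13 with library totals and 13 to 15 with 1 library left out. Members that fell numbered 9 in every fit run. Other pathway genes that rose numbered 32 to 40 and those that fell 10 to 14, with 32 under the stricter filter, 40 without BMP-inhibited replicate 2, and 14 both without that library and with library totals. The fit with the replicate block gave 15 and 9 members and 37 and 10 other pathway genes, as without the block, and 5149 and 5061 of all genes. Of 24 called members, 21 kept their direction and call in each alternative that tested them, and Ifngr1, Trim25 and Parp9 did not. Signs changed for members that did not pass in either fit: Ifnar1 (-0.0409) and Parp1 (-0.0259) with library totals; with 1 library left out, Ifnar1 ran from -0.0201 to 0.0502, Oas2 from -0.0466 to 0.146, Ifi27 from -0.525 to 0.125 and Ifitm1 from -0.0618 to 0.0287. The cause was not tested. Library totals moved the median of all genes by -0.059. Depth limits the 7 untested members and Irf2, Irf7 and Isg20, whose control libraries held at most 12 counts each.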

Other observations

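Several members sit beside related genes on the chromosome, and neighbours did not always move alike. Oasl1 and Oasl2 lie 11006 bases apart on chromosome 5; Oasl1 had 67 counts over BMP-inhibited libraries and 221 over controls, whereas Oasl2 had 77 over BMP-inhibited libraries and 26 over controls (log2 fold changes -1.59 and 1.67). In the Oas1 cluster of the same chromosome, Oas1a and its near-identical neighbour Oas1g had log2 fold changes of 1.25 and 1.04, while Oas1b, Oas1c, Oas2 and Oas3 had -0.21, -0.12, 0.07 and -0.38. Rsad2 (viperin) and Cmpk2, 12752 bases apart on chromosome 12, had 127 and 116 counts over BMP-inhibited libraries, against 18 (Rsad2) and 21 (Cmpk2) over controls. BMP-inhibited replicate 2 was the lowest of its group for both, with 17 of the 127 Rsad2 counts. For Oasl2 that library was also the lowest of its group, at 0.385 CPM, close to the 0.362 CPM of control replicate 3. Oasl2, Rsad2 and Cmpk2 passed the count filter only through BMP-inhibited libraries and could not have been seen as lower.

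On chromosome 16, Dtx3l, Parp9 and Parp14 had log2 fold changes of 0.92, 0.28 and 0.77. The receptor genes Ifnar1, Ifnar2, Ifngr2 and Il10rb, also neighbours on that chromosome, had 0.02, -0.13, 0.21 and -0.53, and none passed the threshold. Igtp and Irgm2, which overlap on chromosome 11, were at 5.27 ± 1.02 and 2.6 ± 0.236 CPM in BMP-inhibited cells and 1.58 ± 0.103 and 2.99 ± 0.0744 CPM in controls (SD, n = 3).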
